A study of Sus scrofa with 70 samples.

Results

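The 5 genes described here are CD46, CD55 and CD59, which encode membrane inhibitors of complement, C3, its central component, and CFI, which encodes the soluble protease factor I. They were chosen by name, and are 5 of the 35374 genes for which transcript abundance was summed. The tissues came from boars aged 12 months and of 2 lines, the Banna mini-pig inbred line (BMI) and the Diannan small-ear pig (DSE) from which it was bred. The organs sampled from both were the testis (Tes) and the epididymis (Epi), and 3 accessory glands, namely the bulbourethral (BG), the prostate (PG) and the vesicular gland (VG), with 3 short-read RNA-seq libraries and 1 long-read Iso-seq library in each of the 10 groups. The labels name no treatment. In RNA of bulk tissue, fewer cells of a type and less RNA per cell cannot be told apart. The labels do not say whether the 3 libraries of a group are 3 animals, so the p-values measure only the spread between these libraries.

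Complement is a cascade of blood proteins in which enzyme complexes cleave C3, and the fragment C3b becomes attached to nearby surfaces and drives the assembly of a lytic pore. Host cells stop this at several steps. CD55 speeds the decay of the cleaving complexes, CD46 acts as the cofactor with which factor I cuts C3b, and CD59 blocks the insertion of C9 into the pore. Sperm carry such inhibitors, and in rodents CD46 is largely restricted to the acrosome of sperm. In pigs CD46 is found on many cell types.

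The deposited annotation names C3 (ENSSSCG00000013551, chr2:72431212-72472228, plus strand) and CFI (ENSSSCG00000009138, chr8:112414325-112470841, plus strand), with coordinates on Sscrofa11.1. It gives the other 3 genes as identifiers without a name. They were matched to RefSeq by shared introns, CD46 as ENSSSCG00000038506 (chr9:135025434-135079161, minus strand, 11 of 14 introns), CD55 as ENSSSCG00000015664 (chr9:67933220-67960370, plus strand, 11 of 18 introns) and CD59 as ENSSSCG00000024791 (chr2:27186549-27207302, plus strand, 3 of 3 introns).

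CD46 has 3 short internal exons that some full-length isoforms keep and others skip, and they are shown because the CD46 isoforms described below differ by them. The exons are in capitals, with 10 bases of intron on each side in lower case, on the coding strand and from the RefSeq genome sequence of Sscrofa11.1.
CD46 45-base exon: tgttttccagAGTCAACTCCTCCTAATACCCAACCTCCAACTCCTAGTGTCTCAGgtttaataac
CD46 51-base exon: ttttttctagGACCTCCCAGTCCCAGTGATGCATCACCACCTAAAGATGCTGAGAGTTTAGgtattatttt
CD46 44-base exon: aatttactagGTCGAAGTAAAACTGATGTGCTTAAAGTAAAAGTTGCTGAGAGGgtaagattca
With their flanks they lie at chr9:135051365-135051429, chr9:135043195-135043265 and chr9:135033365-135033428 on the minus strand. The exons of 51 and 44 bases are in the Ensembl and RefSeq gene models, and the exon of 45 bases is in neither and was seen only in Iso-seq isoforms. The lengths of 45 and 51 bases are multiples of 3 and that of 44 bases is not.

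For C3 the bases in front of a start used in testis are shown, because PB.10650.6, PB.10650.7 and PB.10650.9, described below, begin at it, the last by its deposited offset from a reference transcript. The line gives 140 bases of the plus strand that end just before the first base of the isoform PB.10650.6.
C3 testis start: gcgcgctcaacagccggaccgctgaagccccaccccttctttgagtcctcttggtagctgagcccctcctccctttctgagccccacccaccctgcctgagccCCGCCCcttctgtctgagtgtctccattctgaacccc
The C3 window is chr2:72432540-72432679, in an intron of C3, and has a GC content of 64.3%. The median of 54622 such windows before RefSeq transcript starts was 60.7%. Capitals mark matches to 4 motifs searched on both strands, namely TATAAA and CCAAT, and also TGACGTCA and GGGCGG. The window holds 1 match, the reverse complement of GGGCGG, which begins 37 bases before the start, and none to the other 3 motifs. On either strand GGGCGG is found in 38.0% of all windows, CCAAT in 20.7%, TATAAA in 4.79% and TGACGTCA in 1.2%.

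Abundance is given as TPM, a relative abundance per transcript that allows for its length, summed over the transcripts of a gene, and comparisons were made with limma on log2(TPM + 1). A difference was called where its Benjamini-Hochberg adjusted p over 19721 genes was below 0.05. The labelled organs were checked against marker genes. The summed abundance of 6 spermatid genes was 24570 to 109700 TPM in the testis libraries and at most 1001 TPM elsewhere, and that of 8 genes of the epididymal epithelium was at least 1649 TPM in epididymis and at most 31.2 TPM elsewhere. Several libraries stood apart within their gland. DSE_Tes replicate 2 had the fewest spermatid transcripts of the testis libraries (24570 TPM, against 72520 or more) and the most Leydig cell transcripts (63470 TPM, against at most 32310). BMI_Epi replicate 1 was highest of the epididymis libraries in blood (2701 TPM), endothelial (571 TPM) and fibroblast (8619 TPM) genes. DSE_BG replicate 3 had 1942 TPM of skeletal muscle genes, where the median of that gland was 20.8 TPM, and BMI_BG replicate 1 had 552.5 TPM. The median difference of all genes from the other glands was -0.69 in vesicular gland, 0.31 in testis and 0.25 in epididymis on the log2 scale, and became -0.20, 0.12 and -0.14 after rescaling by size factors, so that changes are to be read against these values.

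CD46 was most abundant in testis and bulbourethral gland and least abundant in vesicular gland. In testis it reached 67.8, 56.8 and 54.5 TPM in the BMI libraries and 56.2, 170 and 73.5 TPM in the DSE libraries. The 170 TPM of DSE_Tes replicate 2 stood alone, and the other 5 testis libraries lay between 54.5 and 73.5 TPM. DSE_Tes replicate 2 also had the most Leydig cell (63470 TPM) and Sertoli cell (429.3 TPM) transcripts of testis and the fewest spermatid ones (24570 TPM). The part of these cell types in its CD46 level was not tested. Bulbourethral gland ranged from 46.8 to 96.4 TPM with a median of 65.4, epididymis from 15.5 to 83.8 with a median of 45.5, prostate gland from 23.1 to 51.02 with a median of 35.8, and vesicular gland from 11.4 to 26.7 with a median of 19.1. All vesicular gland libraries were below all testis and bulbourethral gland libraries, and epididymis overlapped every other gland.

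Against the mean of the other 4 glands, CD46 was higher in testis by 0.97 ± 0.24 (SE) on the log2 scale (adjusted p = 0.000758, limma) and in bulbourethral gland by 0.74 ± 0.24 (adjusted p = 0.011), and lower in vesicular gland (-1.38, and -0.55 after rescaling by size factors, adjusted p = 0.00359). CD46 and CD59 were the 2 members called in testis, where 74.9% of all genes were called. Without DSE_Tes replicate 2 the testis difference of CD46 was 0.73 and was still called. Neighbours in the order of levels were mostly not separated. Testis and bulbourethral gland differed by 0.18 ± 0.30 (adjusted p = 0.607), bulbourethral gland and epididymis by 0.61 ± 0.30 (adjusted p = 0.117), and epididymis and prostate gland by 0.21 ± 0.30 (adjusted p = 0.613). Testis was above epididymis by 0.79 ± 0.30 (adjusted p = 0.0207), but not without DSE_Tes replicate 2 (0.562, adjusted p = 0.0881), BMI_Epi replicate 3 (0.668) or DSE_Epi replicate 1 (0.501). Prostate gland was above vesicular gland by 0.87 ± 0.30 (adjusted p = 0.0273), but by 0.31 after rescaling by size factors (adjusted p = 0.278), and the call was lost without any 1 of 6 libraries of those glands (adjusted p up to 0.0907). After that rescaling CD46 was also lower in epididymis, by 0.52 (adjusted p = 0.006), and bulbourethral gland was above epididymis by 0.83 (adjusted p = 0.00121). With reference transcripts alone, which leave out the Iso-seq isoforms, CD46 was called in no gland. The testis difference was then 0.37 (adjusted p = 0.438), that of vesicular gland -0.71 (adjusted p = 0.134) and that of bulbourethral gland 1.0 (adjusted p = 0.053).

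CD55 was the least abundant member, with 0.424 to 40.3 TPM over the 30 libraries. The highest values were 40.3 TPM in BMI_Epi replicate 1 and 18.8 TPM in DSE_Epi replicate 2, the 2 epididymis libraries richest in blood, endothelial and fibroblast transcripts. The other BMI epididymis libraries had 4.24 and 1.51 TPM and the other DSE ones 3.23 and 9.07 TPM. The part of these cell types in the level of CD55 was not tested. Median levels were 6.66 TPM in epididymis, 6.09 in prostate gland, 4.45 in bulbourethral gland, 2.78 in testis and 1.49 in vesicular gland, and the ranges of all glands overlapped. CD55 was called in no gland. Over the pairs of glands the share of all genes called was 72.4% for testis and epididymis, 69.9% for testis and vesicular gland, 68% for testis and prostate gland, 68.2% for testis and bulbourethral gland, 63.3% for epididymis and vesicular gland, 43% for epididymis and prostate gland, 37.1% for epididymis and bulbourethral gland, 50.2% for vesicular and bulbourethral gland, 18.4% for prostate and bulbourethral gland, and 33.5% for prostate and vesicular gland. For CD55 1 of the 10 pairs was called, epididymis above vesicular gland by 1.55 ± 0.58 (adjusted p = 0.0226). Rescaling by size factors reduced this difference to 0.80 (adjusted p = 0.245), and without BMI_Epi replicate 1 it was 0.969 (adjusted p = 0.106). The call was also lost without DSE_Epi replicate 2 (1.288), BMI_VG replicate 1 (1.387), DSE_VG replicate 1 (1.335) or DSE_VG replicate 3 (1.349).

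CD59 divided the glands into a high and a low set. It ranged from 165 to 254 TPM in bulbourethral gland, from 115 to 250 in prostate gland and from 101 to 228 in epididymis, but from 29.1 to 76.4 in vesicular gland and from 26.2 to 89.0 in testis. No library of the first 3 glands overlapped a library of the last 2 in TPM as deposited. Divided by size factors, epididymis ranged from 89.3 to 187 and vesicular gland from 45 to 122, which overlap, while testis ranged from 23.4 to 76.7, below every epididymis library. The summed abundance of 5 epithelial genes was also lowest in testis and vesicular gland, with medians of 2494.5 TPM in bulbourethral gland, 1883 in prostate gland, 1325.5 in epididymis, 1088 in vesicular gland and 35.3 in testis. In bulbourethral gland, where C3 and CD46 were also higher, it was at least 2363 TPM, above every library of the other glands (at most 2337), and its part in these levels was not tested. The testis values were 89.0, 41.5 and 69.5 TPM in BMI and 26.2, 49.4 and 28.8 TPM in DSE. CD59 was called in all 5 glands, lower in testis by 1.48 ± 0.20 (adjusted p = 2.11e-07) and in vesicular gland by 1.43, and higher in bulbourethral gland by 1.16, in prostate gland by 1.07 and in epididymis by 0.68. The epididymis call was lost after rescaling by size factors (0.17, adjusted p = 0.393). Prostate and bulbourethral gland differed by 0.07 ± 0.25 (adjusted p = 0.985), epididymis and prostate gland by 0.32 ± 0.25 (adjusted p = 0.322), and testis and vesicular gland by 0.05 ± 0.25 (adjusted p = 0.885). The step between the sets, from vesicular gland to epididymis, was 1.68 ± 0.25 (adjusted p = 3.85e-06), and 0.60 after rescaling by size factors (adjusted p = 0.027). Of the neighbours within the sets, 2 pairs separated after that rescaling, testis below vesicular gland by 0.92 (adjusted p = 0.000308) and epididymis below prostate gland by 0.83 (adjusted p = 0.00278), while prostate and bulbourethral gland did not (0.21, adjusted p = 0.623).

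C3 was highest in bulbourethral gland, where it had 85.9, 122 and 205 TPM in BMI and 172, 57.0 and 319 TPM in DSE. Epididymis ranged from 7.51 to 192 TPM with a median of 53.5, testis from 26.4 to 67.3 with a median of 50.9, prostate gland from 23.1 to 111 with a median of 44.02 and vesicular gland from 4.79 to 86.2 with a median of 23.2. Bulbourethral gland overlapped every other gland at its lower end. The log2 difference of bulbourethral gland from the others was 1.85 ± 0.44 (adjusted p = 0.000947), and it stayed between 1.57 and 2.19 when any of the 30 libraries was left out. Of the 5 members, CD46, CD59 and C3 were called there, against 54.6% of all genes. The same 3 were called in vesicular gland, against 76.2% of all genes, and the difference of C3, -1.59 ± 0.44, was -0.78 after rescaling by size factors (adjusted p = 0.0592). Testis, epididymis and prostate gland differed from each other by at most 0.25 ± 0.55 for C3 (adjusted p from 0.755 to 0.948). The difference from bulbourethral gland was -1.501 for testis (adjusted p = 0.0188) and -1.70 for epididymis (adjusted p = 0.0167), calls that were both lost without DSE_BG replicate 3 (-1.222 and -1.423), and -1.45 for prostate gland (adjusted p = 0.0701), which was not called. The first was lost also without DSE_Tes replicate 2 (-1.322), and the other without BMI_Epi replicate 3 (-1.265) or DSE_Epi replicate 1 (-1.241). Testis was above vesicular gland by 1.25 (adjusted p = 0.0471), a call lost after rescaling by size factors (0.41, adjusted p = 0.415), with the replicate block (adjusted p = 0.0537), and without any 1 of 15 libraries (adjusted p up to 0.123).

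CFI had its highest mean in bulbourethral gland, but with a wide spread, 10.6, 24.8 and 33.7 TPM in BMI and 3.83, 5.30 and 57.3 TPM in DSE. The 57.3 TPM was in DSE_BG replicate 3, which also had the most skeletal muscle (1942 TPM), plasma cell (322 TPM) and macrophage (129 TPM) transcripts of that gland, and their part in the level was not tested. Epididymis ranged from 5.76 to 35.2 TPM, testis from 5.24 to 13.3, prostate gland from 3.85 to 14.8 and vesicular gland from 2.43 to 21.5. CFI was called in no gland, and 1 of the 10 pairs was called, epididymis above vesicular gland by 1.14 ± 0.46 (adjusted p = 0.0362). It was lost without any 1 of 7 libraries of those glands (adjusted p up to 0.096). That difference was 0.17 after rescaling by size factors (adjusted p = 0.813). With reference transcripts alone CFI was lower in testis by 1.79 (adjusted p = 0.000148) and higher in epididymis by 1.24 (adjusted p = 0.00728), with the Iso-seq isoforms of CFI left out. In prostate gland CD59 alone of the 5 members was called, against 49.9% of all genes, as in epididymis, against 58.4%.

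**Figure D1:**
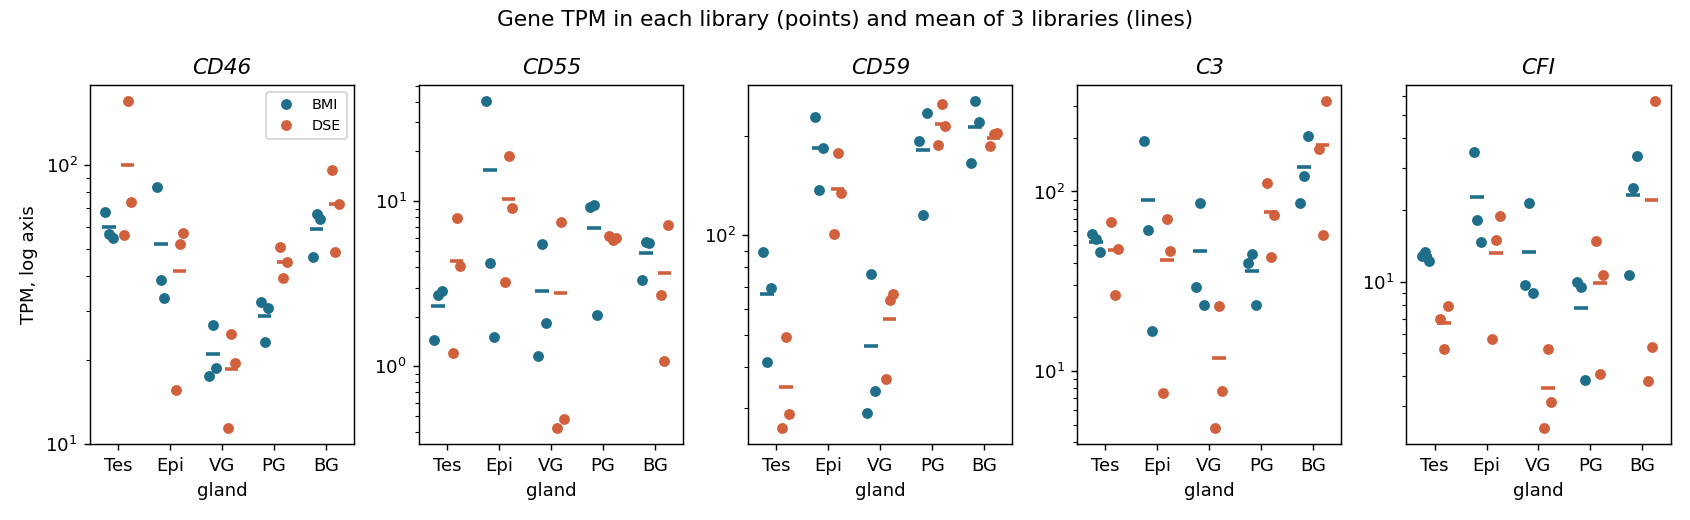
Abundance in TPM on a log axis of CD46, CD55, CD59, C3 and CFI in the 5 organs of BMI and DSE, which are abbreviated as in the text; points are libraries and lines the mean of 3 libraries. CD59 lies between 26.2 and 89.0 TPM in testis and vesicular gland and above 100 TPM in every library of the other 3 glands.

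**Figure D2:**
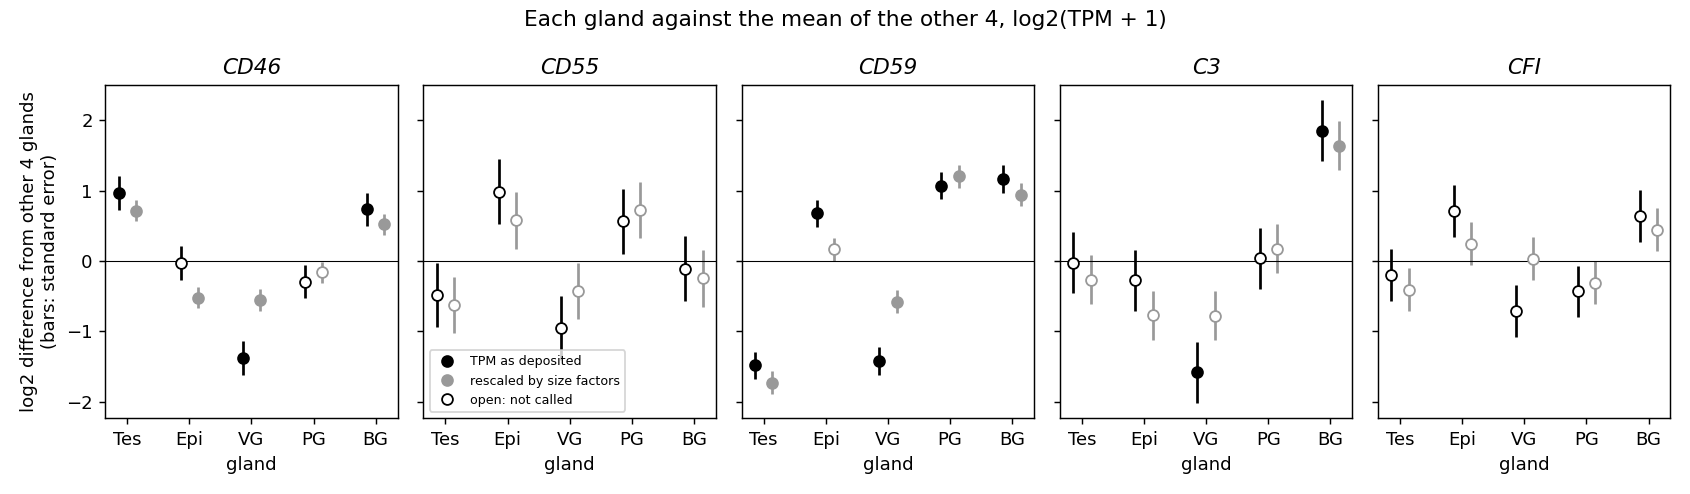
Log2 difference of each gland from the mean of the other 4, with its standard error, for TPM as deposited (black) and after rescaling by size factors (grey); filled points were called. The vesicular gland values of the 5 genes lie nearer to 0 after rescaling, and the bulbourethral gland value of C3 is 1.85 and 1.64.

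The breeds were compared within each gland as DSE minus BMI, and none of the 25 differences was called with limma. Testis had 7.35% of all genes called, epididymis 0.801%, vesicular gland 0.578%, prostate gland 0.639% and bulbourethral gland 0.325%. The difference with the smallest unadjusted p was that of CD59 in testis, -0.91 ± 0.35 (limma, adjusted p = 0.137), where the BMI values (41.5 to 89.0 TPM) and the DSE values (26.2 to 49.4 TPM) overlapped. After rescaling by size factors it was -0.94 and passed the threshold (adjusted p = 0.0469).

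CFI and C3 in vesicular gland were the other 2 with an unadjusted p below 0.05. CFI had 9.67, 21.5 and 8.93 TPM in BMI against 2.43, 5.21 and 3.11 TPM in DSE, with no overlap, and a difference of -1.59 ± 0.66 (limma, adjusted p = 0.334). C3 had 29.2, 86.2 and 23.3 TPM in BMI against 4.79, 23.0 and 7.68 TPM in DSE, also without overlap, and a difference of -1.91 ± 0.78 (limma, adjusted p = 0.326). The median gene differed by -0.27 between the same libraries. Fibroblast transcripts summed to 637.9 to 1228 TPM in BMI and 181.3 to 433.6 TPM in DSE vesicular gland, epithelial ones to 1169 to 1298 and 726.8 to 1007 TPM, and plasma cell ones to 33.14 to 37.17 and 71.65 to 86.06 TPM, each without overlap between the breeds, and their part in these differences was not tested. In testis CFI had 12.8, 13.3 and 12.3 TPM in BMI and 6.97, 5.24 and 7.89 TPM in DSE, again apart, with -0.86 ± 0.66 (limma, adjusted p = 0.586). Leydig cell transcripts summed to 18560 to 21750 TPM in BMI and 23930 to 63470 TPM in DSE testis, spermatocyte ones to 333.4 to 438.1 and 117.8 to 331.4 TPM, and plasma cell ones to 21.81 to 22.64 and 14.16 to 19.88 TPM, each without overlap, and their part in the testis values of CFI and CD59 was not tested. In prostate gland CD46 had 23.14 to 32.25 TPM in BMI and 39.41 to 51.02 TPM in DSE, also apart, with 0.64 ± 0.42 (limma, adjusted p = 0.512). How many of all genes lie apart between the breeds in this way was not counted. Averaged over the glands CFI differed by -0.77 ± 0.29 (limma, adjusted p = 0.179), where 3.59% of all genes were called and none of the 5 was. Without DSE_BG replicate 3 it was the only member called for this average. No member had a called interaction of breed and gland, against 2.98% of all genes.

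The forms of CD46 in testis were read from the full-length reads of Iso-seq, of which the BMI testis library held 55 and the DSE testis library 42 for CD46, among 455023 and 457778 reads in all. With 1 library per breed and gland, shares are given with Wilson 95% intervals, which cover counting error only, and no test. In testis 5 isoforms reached at least 5% of the CD46 reads in either library. PB.20501.14, which matches the Ensembl transcript ENSSSCT00000062201 and keeps the 51 and 44-base exons, had 17 of 55 reads in BMI (30.9%, 20.3 to 44) and 12 of 42 in DSE (28.6%, 17.2 to 43.6). PB.20501.17, with the 51-base exon alone, had 32.7% (21.8 to 45.9) in BMI and 21.4% (11.7 to 35.9) in DSE. PB.20501.4, which skips all 3 exons, had 14.5% (7.56 to 26.2) and 9.52% (3.77 to 22.1). PB.20501.15, which keeps all 3, had 7.27% (2.86 to 17.3) and 26.2% (15.3 to 41.1), with intervals that overlap narrowly. PB.20501.18, which keeps the 45 and 51-base exons and skips the 44-base exon, had 3.64% (1.0 to 12.3) and 7.14% (2.46 to 19.0). By RNA-seq, PB.20501.15 had mean shares of 1.83% in BMI testis and 1.15% in DSE testis, below its Iso-seq intervals. PB.20501.17 had 7.15 and 8.02% and PB.20501.4 6.92 and 3.47%, also below theirs. PB.20501.18 had 27.5 and 33.5%, above its intervals, and ENSSSCT00000062201 26 and 21.7%, within those of PB.20501.14. The higher share of PB.20501.15 in DSE was not seen in RNA-seq, and why the assays differed was not tested.

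PB.20501.18 was the CD46 form that set testis apart in the short reads. Its share of the CD46 abundance was 31.0, 32.4 and 19.0% in the BMI testis libraries and 21.5, 42.5 and 36.6% in the DSE ones, and at most 15.2% in the other 24 libraries. No testis library overlapped another gland. In a limma fit of isoform shares in testis against the other glands, in which 16.4% of 46085 transcripts were called, its share was higher by 22.5 ± 2.45 percentage points (adjusted p = 1.52e-07), and leaving out any 1 library gave 20.2 to 25.5. ENSSSCT00000062201 was lower by 15 ± 4.39 points (adjusted p = 0.0112), with 15.8 to 30.2% in testis and 6.56 to 60.8% elsewhere, so that the ranges overlapped. In Iso-seq the same PB.20501.18 had 5 of the 97 testis reads of CD46 and 1 of the 253 reads of the other glands (0.395%, 0.0698 to 2.20). In DSE_Tes replicate 2, the library with the most CD46, PB.20501.18 had 72.1 TPM, and in the other testis libraries 10.4 to 26.9 TPM. The predicted open reading frame of PB.20501.18 is 396 amino acids, that of PB.20501.14 is 363, that of PB.20501.15 is 378, that of PB.20501.17 is 381 and that of PB.20501.4 is 364.

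Summed over isoforms, the 44-base exon was kept by 27.7 to 43.2% of CD46 transcripts in the 6 testis RNA-seq libraries. In vesicular gland it was kept by 72.1 to 85.6%, in bulbourethral gland by 68.0 to 78.4%, in prostate gland by 63.4 to 72.5% and in epididymis by 42.4 to 90.3%. The testis values overlapped those of epididymis only. In Iso-seq, 49 of 95 testis reads kept it (51.6%, 41.7 to 61.4) and 160 of 249 reads of the other glands (64.3%, 58.1 to 70.0). The 45-base exon was kept by 40.2 to 55.0% in testis RNA-seq and by 13.9 to 51.1% elsewhere, and in Iso-seq by 10 of 54 reads in BMI testis (18.5%, 10.4 to 30.8) and 16 of 41 in DSE testis (39.0%, 25.7 to 54.3). Both testis libraries together kept it in 26 of 95 reads (27.4%, 19.4 to 37.1), against 63 of 249 in the other glands (25.3%, 20.3 to 31.0). The 51-base exon was kept by 81.3% ± 5.07 (SD, n = 6) in testis RNA-seq and by 75.5 to 85.1% on average in the other glands. It was the most often kept of the 3 on average in each gland but the vesicular gland, where it had 75.5% and the 44-base exon 77.6%. In Iso-seq 78 of 94 testis reads kept it (83.0%, 74.1 to 89.2) and 230 of 248 reads of the other glands (92.7%, 88.8 to 95.4). These sums were made after the isoforms had been seen, and were given no test.

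**Figure D3:**
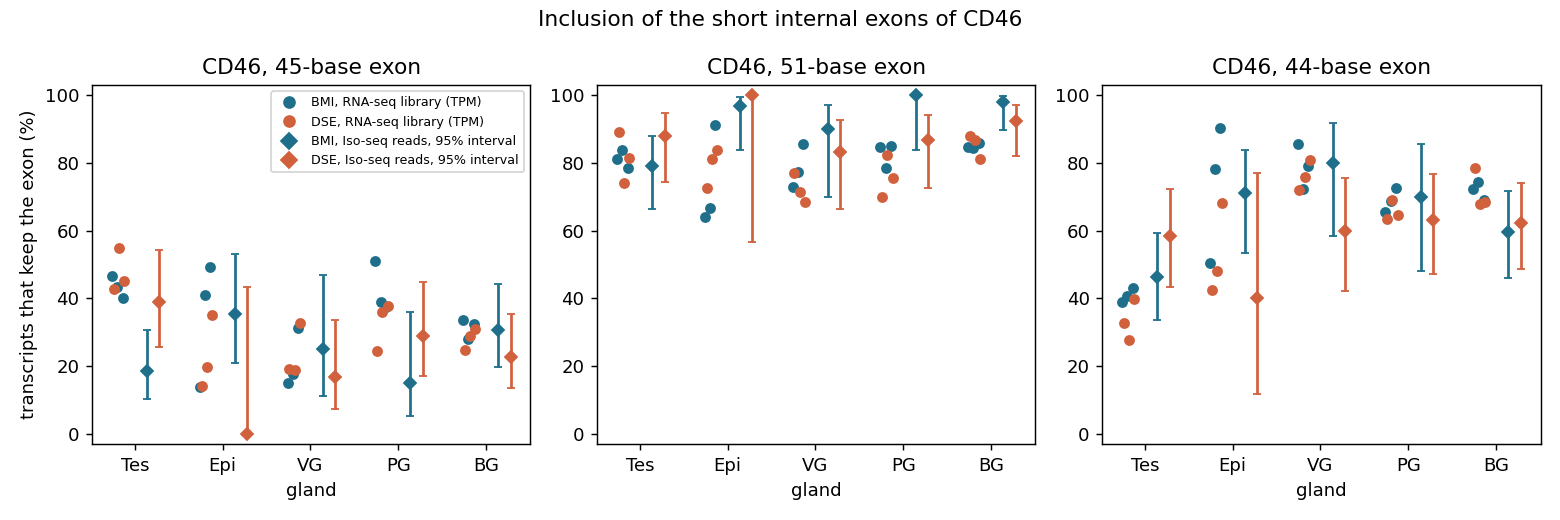
Percent of CD46 transcripts that keep each of 3 short internal exons, by gland, in RNA-seq libraries (circles, by TPM) and in Iso-seq libraries (diamonds, by full-length reads, with Wilson 95% intervals). The circles for the 44-base exon lie between 27.7 and 43.2% in testis and above 60% in every library of the 3 accessory glands.

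CD55 had too few reads for an account of its testis forms. Iso-seq held 7 full-length reads of CD55 in all 10 libraries, in 3 isoforms, and 1 of them was from testis, the BMI library, for PB.19943.3, a fragment of 2 exons. The 457778 reads of DSE testis held 0, and a count of 0 allows up to 3. RNA-seq gave 4 Ensembl transcripts, of which ENSSSCT00000065679 reached 3.64 TPM in testis, ENSSSCT00000057281 2.46 TPM and ENSSSCT00000036821 1.76 TPM, all 3 in DSE_Tes replicate 2, while ENSSSCT00000033323 was listed at 0 in every testis library. In the other 5 testis libraries the same 3 transcripts reached at most 1.63, 1.46 and 0.94 TPM. CD55 was not among the genes whose isoform shares were fitted, since its lowest gene abundance was 0.424 TPM.

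In full-length reads the main start of C3 and of CFI in testis differed from that of the other glands together. CD59 had a further start in testis, but most of its testis reads came from the reference start, 35 of 37 in BMI and 7 of 7 in DSE. In RNA-seq the reference start took 73.9 to 93.3% of CD59 abundance in testis. These genes were chosen after the values of their transcripts had been seen. For C3 the reference start lies at chr2:72431475 in PB.10650.1, an isoform of 41 exons with a predicted reading frame of 1661 amino acids. In testis most reads began 1205 bases downstream, at 72432680, or between 72432391 and 72433540, and the reading frames predicted for these isoforms are shorter, 1462 amino acids for PB.10650.9 and 1327 for PB.10650.6. In Iso-seq 33 of 39 C3 reads in BMI testis (84.6%, 70.3 to 92.8) and 60 of 69 in DSE testis (87.0%, 77.0 to 93.0) had this downstream start, against 26 of 154 in the other glands (16.9%, 11.8 to 23.6). The reference start had 4 of 39 reads in BMI testis and 0 of 69 in DSE testis, which at 3 counts allows a share of up to 4.35%. It had 89 of 154 reads in the other glands (57.8%, 49.9 to 65.3). The remaining reads began farther downstream, 39 of 154 in the other glands (25.3%, 19.1 to 32.7), 2 of 39 in BMI testis (5.13%, 1.42 to 16.9) and 9 of 69 in DSE testis (13%, 7.02 to 23.0).

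In RNA-seq the downstream C3 start took 61.5, 62.2 and 67.9% of C3 abundance in the BMI testis libraries and 81.9, 21.7 and 61.7% in the DSE ones, and at most 13.9% in the other 24 libraries. The libraries of testis and of the other glands did not overlap. Of its isoforms PB.10650.7 was higher in testis by 23 ± 1.33 points (limma, adjusted p = 4.31e-12), PB.10650.4 by 19.4 ± 2.66 (adjusted p = 4.34e-06) and PB.10650.6 by 11.2 ± 0.91 (adjusted p = 1.27e-09), and PB.10650.1 was lower by 42 ± 13.3 (adjusted p = 0.019), a call lost without DSE_Tes replicate 1 (-35.2) or 3 (-40.3). PB.10650.6 and PB.10650.7 did not overlap between testis and the other glands. PB.10650.4 did, at 0 to 34.2% in testis, with the 0 in DSE_Tes replicate 2, and up to 9.0% elsewhere, and so did PB.10650.1, at 17.3 to 78.3% in testis and 0 to 98.4% elsewhere. PB.10650.9, which has 47 of the 69 reads in DSE testis and 25 of the 39 in BMI testis, matches part of a reference transcript and was left out of the annotation used for RNA-seq, so it has no TPM. The abundance from the reference start was 11.8 to 22.0 TPM in testis, with a median of 19.3, against medians of 144 TPM in bulbourethral gland, 51.9 in epididymis, 42.2 in prostate gland and 21.9 in vesicular gland. That from the downstream start was 5.73 to 55.2 TPM in testis and at most 6.98 TPM elsewhere. The starts farther downstream took at most 0.747% of C3 abundance in testis, but 85.5% in DSE_VG replicate 1, 79.8% in DSE_Epi replicate 1, 59.0% in DSE_BG replicate 2 and 54.5% in BMI_Epi replicate 3, and at most 24.9% in the other libraries. These 4 libraries also had low scores on the main axis of the differences between libraries of a gland, described at the end, -55.5, -98.25, -41.94 and -53.41 in the same order, but BMI_PG replicate 3, with a score of -43.69, had 0% of these starts. The part of this axis in the shares was not tested, and RNA integrity, which the study scored for each library, was not analysed here.

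The share of the downstream C3 start in testis was lowest in DSE_Tes replicate 2 (21.7%), which had 24570 TPM of spermatid transcripts, and highest in DSE_Tes replicate 1 (81.9%), which had 109700 TPM. The 4 libraries between them had 72520 to 90560 TPM of spermatid transcripts and 61.5 to 67.9% of this start. On the main axis of the differences between libraries of a gland, DSE_Tes replicate 1 had the lowest testis score (-22.15) and DSE_Tes replicate 2 the highest (22.04). The 4 libraries between them had scores of -8.85 to 5.89. The part of spermatids and that of this axis were not tested.

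For CFI the start in testis lies 19794 bases upstream of that of PB.19099.7, at chr8:112414330 for PB.19099.2. Full-length reads from this upstream start were 14 of 20 in BMI testis (70.0%, 48.1 to 85.5) and 4 of 5 in DSE testis (80.0%, 37.6 to 96.4), and 1 of 212 in the other glands (0.472%, 0.0833 to 2.62). The single read outside testis was from BMI bulbourethral gland. In RNA-seq the upstream start took 97.8, 99.0 and 98.1% in the BMI testis libraries and 99.5, 98.7 and 99.5% in the DSE ones. Unlike the reads of Iso-seq, RNA-seq gave it 9.28 to 88.5% in the other 24 libraries, with a median of 40.6%. PB.19099.2 rose by 67 ± 4.28 points in testis (limma, adjusted p = 2.39e-11), and PB.19099.7 fell by 30.5 points (adjusted p = 0.0177) and was listed at 0 in all 6 testis libraries, but also in 7 of the other 24. Abundance from the reference start was 0.0354 to 0.281 TPM in testis and 0.441 to 38.4 TPM elsewhere.

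RefSeq places another gene, LOC102157627, at chr8:112414315-112430454 on the same strand, and the first exon of PB.19099.2 (266 bases) and the exon after it (112429803-112429905) lie wholly within exons of that gene. The deposited annotation does not list that gene, and short reads of it and of the upstream CFI forms cannot be told apart. The level of CFI in each gland above includes them. The predicted reading frame of PB.19099.2 is 581 amino acids and that of PB.19099.7 is 588.

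For CD59 the testis form PB.10177.100 begins downstream of the reference start, in an intron, and lacks a predicted coding sequence. It took 10.1, 19.7 and 16.0% of CD59 abundance in the BMI testis libraries and 26.1, 6.71 and 15.4% in the DSE ones. In the other 24 libraries it was at most 0.846%, and 0 in every epididymis and bulbourethral gland library. The difference was 15.6 ± 1.56 points (limma, adjusted p = 3.8e-08). The long reads were few, 2 of 37 in BMI testis (5.41%, 1.5 to 17.7), 0 of 7 in DSE testis, and 0 of 547 in the other glands (which allows a share of up to 0.548%). Its first exon of 178 bases lies wholly within an exon of LOC106509385, which RefSeq puts on the opposite strand, and whether the library kit kept the strand is not given in the sources used here, so reads of the 2 genes may not be told apart there. Abundance from the reference start alone was 19.3 to 80.0 TPM in testis and 28.8 to 254 TPM elsewhere.

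**Figure D4:**
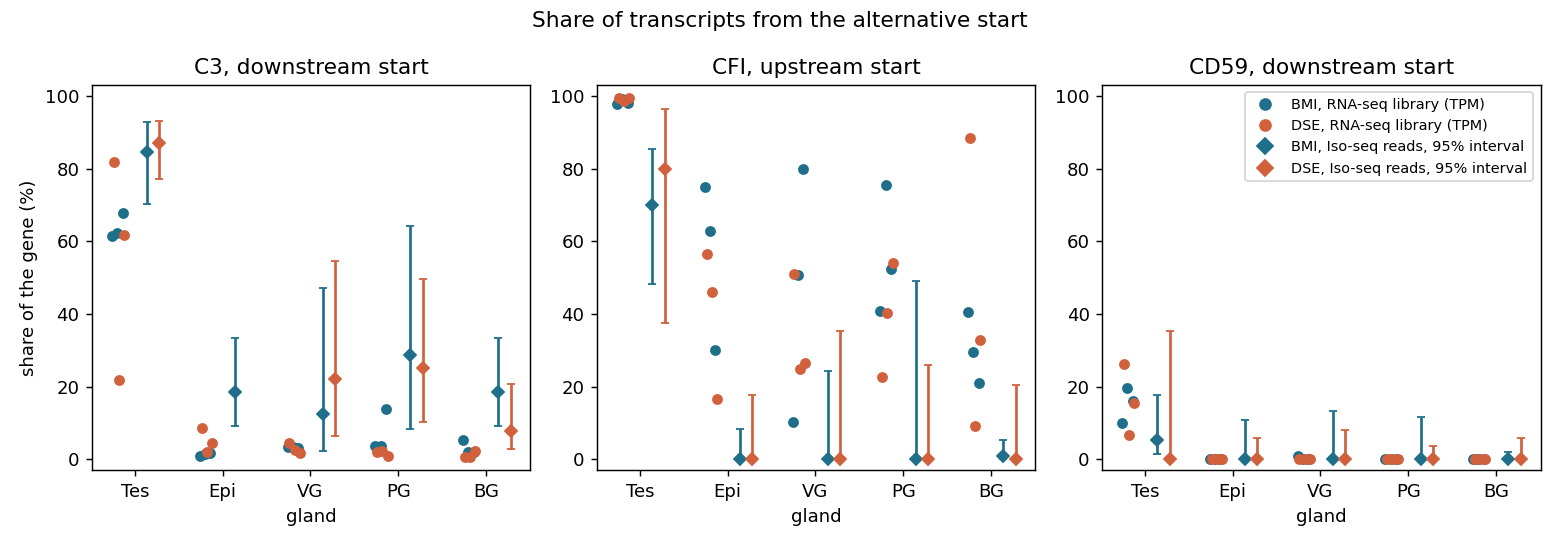
Share of the gene from the downstream start of C3, the upstream start of CFI and the downstream start of CD59, in percent, by gland; circles are RNA-seq libraries (by TPM) and diamonds Iso-seq libraries (by full-length reads, with Wilson 95% intervals). Testis circles lie at 21.7 to 81.9% for C3, 97.8 to 99.5% for CFI and 6.71 to 26.1% for CD59, above every other gland in each case, and for CFI the circles outside testis lie above the diamonds.

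Other genes of the complement cascade were taken from a list of 40, of which 37 were found by name and 32 were abundant enough to be tested. In epididymis 20 of the 32 were higher and 1 lower, with a median difference of 0.85 where the median of all genes was 0.25, and where 38.8% of all genes were higher and 19.7% lower. Epididymis also had the highest median sums of fibroblast (1520 TPM), smooth muscle (6509 TPM), blood (645 TPM), endothelial (144 TPM) and macrophage (83.8 TPM) transcripts of the 5 glands, and their part in this count was not tested. In vesicular gland 1 was higher and 19 were lower, with a median of -0.75 beside -0.69 for all genes, of which 5.65% were higher and 70.6% lower. In testis 6 were higher and 12 lower (median -0.46, beside 0.31), against 47.7% and 27.2% of all genes. In prostate gland 4 were higher and 8 lower (median -0.10, beside -0.28), against 10.1% and 39.8% of all genes. In bulbourethral gland 8 were higher and 5 lower (median 0.28, beside -0.05), against 23.8% and 30.8%. After rescaling by size factors the counts were 13 higher and 1 lower for epididymis, where 20.1% of all genes were then higher and 34.5% lower. They were 2 and 6 for vesicular gland (20.1% and 37.9% of all genes), 5 and 15 for testis (44.5% and 34.3%), 7 and 8 for prostate gland (16.1% and 36.2%), and 8 and 5 for bulbourethral gland (18.8% and 38.3%). Of all genes called, those higher made up 63.7% for testis, 66.3% for epididymis, 7.41% for vesicular gland, 20.3% for prostate gland and 43.5% for bulbourethral gland, and 56.5%, 36.8%, 34.6%, 30.8% and 33% after the rescaling. CPN2, which was listed at 0 outside testis and was tested only for its testis level, is counted as higher in testis and as lower in each of the other glands. Without it the counts over 31 genes were 20 and 0 for epididymis, 1 and 18 for vesicular gland, 5 and 12 for testis, 4 and 7 for prostate gland, and 8 and 4 for bulbourethral gland. They still include FCN1, which was tested only through its epididymis level and is counted as higher there. They also include MASP2, tested only through its DSE testis level, which is counted as higher in testis and lower in vesicular and prostate gland. By mean TPM 17 of the 32 genes were highest in epididymis, 7 in bulbourethral gland, 5 in testis, 2 in prostate gland and 1 in vesicular gland.

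Of the 11 tested genes that start the classical and lectin routes, C1QA, C1QB and C1QC, which form the recognition molecule C1q of macrophages, were highest in bulbourethral gland (log2 differences 1.34, 1.72 and 1.55). The summed abundance of 6 macrophage genes was 31.9 to 129 TPM there, 15.97 to 36.5 TPM in testis and 18.7 to 175 TPM in epididymis, and its part in C1q was not tested. The proteases C1R and C1S were highest in epididymis (1.02 and 1.17) and lower in testis (-2.34 and -0.995). C4A, whose product is cut by C1S, was highest in testis, 171 TPM ± 109 (SD, n = 6; log2 difference 2.27), and was also higher in epididymis (1.87) and lower in the 3 accessory glands. The lectin FCN2 (2.10), MASP1 (1.85), C2 (0.85) and FCN1 (0.70) were highest in epididymis, and MASP2 in testis (0.78). FCN1 was at most 0.814 TPM outside epididymis, so it was tested only through its epididymis level. Outside DSE testis MASP2 reached 1 TPM only in DSE_BG replicate 3, at 2.06 TPM, so it was tested only through DSE testis.

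In the alternative route CFD, which encodes the protease factor D, was highest in bulbourethral gland at 480 TPM ± 146 (SD, n = 6; log2 difference 2.66) and lower in testis (-2.81). CFB and CFP were highest in epididymis (1.11 and 0.92). Of the terminal components, which form the pore, C9 was highest in testis at 22.6 TPM ± 14.5 (log2 difference 3.58) and higher in epididymis (1.17), C7 and C8G were highest in epididymis (1.62 and 0.72), C6 in vesicular gland (0.97) and C5 in prostate gland (0.59). The prostate gland values of C5 were 0.179, 0.593 and 0.286 TPM in BMI and 6.86, 1.40 and 3.48 TPM in DSE, so that its high mean there was that of DSE. No more than 0.159 TPM of C8A and 0.132 TPM of C8B was found in any library.

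Among the soluble inhibitors, CLU was highest in epididymis on average (log2 difference 2.66) and also higher in testis (2.39), at 945 to 3560 TPM there, and lower in vesicular and prostate gland (-3.85 and -2.07). SERPING1, the inhibitor of C1R and C1S, was highest in epididymis (1.73) and lower in testis (-2.30). C4BPA (1.61) and VTN (0.95) were highest in epididymis, C4BPB in testis (0.35), and CPN2 was listed at 0 in all 24 libraries outside testis and at 7.61 to 27.2 TPM in testis. Of the 7 receptors tested, none was higher in testis and 5 were lower there, C5AR1 (-1.19), CD93 (-0.86), ITGAX (-0.73), ITGB2 (-1.75) and VSIG4 (-1.65), where 47.7% of all genes were higher and 27.2% lower. Macrophage transcripts had a median sum of 23.8 TPM in testis, 63.1 in bulbourethral gland and 83.8 in epididymis, and endothelial ones 52.9 TPM in testis and 144 in epididymis, and their part in the receptor values was not tested. C5AR1, ITGAX and VSIG4 were highest in bulbourethral gland (1.15, 0.91 and 1.55), C5AR2, CD93 and ITGB2 in epididymis (0.92, 0.85 and 1.13), and ITGAM in prostate gland (0.83).

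Between the breeds MASP2 was higher in DSE testis by 1.13 (limma, adjusted p = 0.0037), 1 of 32 genes (3.12%, beside 7.35% of all genes), and C5 in DSE prostate gland by 1.71 (limma, adjusted p = 0.015), also 1 of 32 (beside 0.639%). MASP2 had 0.764, 0.201 and 0.113 TPM in BMI testis and 1.52, 2.48 and 1.84 TPM in DSE testis. Outside DSE testis it reached 1 TPM only in DSE_BG replicate 3 (2.06 TPM), so it entered the fit only through the group where it was called higher. Its difference was 2.40 with a pseudocount of 0.1 (limma, adjusted p = 0.0459), and it was too low to be tested where 1 TPM was asked of 6 libraries. The call of C5 was lost without BMI_PG replicate 1 (1.615, adjusted p = 0.0637), BMI_PG replicate 3 (1.678, adjusted p = 0.0685), DSE_PG replicate 1 (1.288, adjusted p = 0.153) or DSE_PG replicate 3 (1.693, adjusted p = 0.0621). No other gene of the list was called between the breeds in a gland.

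**Figure D5:**
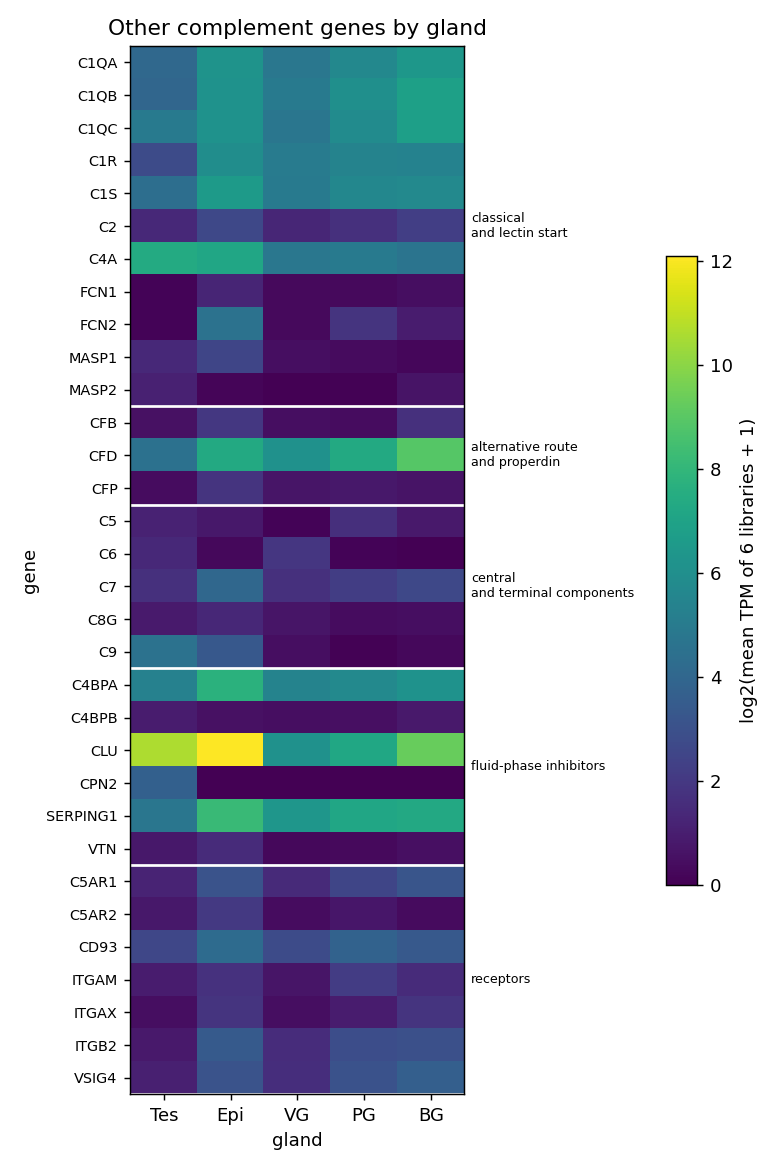
Mean abundance over the 6 libraries of each gland, as log2(TPM + 1), of the 32 tested genes of the complement list, in 5 groups by role. CLU has the highest values, C9 and CPN2 stand out in testis, and CFD is highest in bulbourethral gland.

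The genes most like each member over the 10 group means were given by Pearson's r of log2 abundance among 13600 genes, as a description of points that share libraries. They were NFE2L1 (0.99), MPDU1 (0.98) and SDHC (0.98) for CD46, PDE3A (0.97), ADGRF5 (0.95) and MAP2K7 (0.95) for CD55, DHRS13 (0.96), LMO2 (0.96) and SCARNA2 (0.96) for CD59, TMEM184C, SDC4 and UBR1 (0.96 each) for C3, and SMU1, DDX6 and TAF2 (0.93 each) for CFI. Within the groups, CD55 and C3 had an r of 0.77 over the 30 libraries, C3 and CFI 0.74 and CD46 and CD55 0.71, while CD59 had 0.29 with C3 and 0.20 with CFI. The main axis of the differences between libraries of a gland, which took 28.7% of the variance of all genes, had an r of 0.87 with C3, 0.81 with CD46, 0.80 with CD55, 0.64 with CFI and 0.36 with CD59.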

How the data were processed

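Values of 30 RNA-seq and 10 Iso-seq libraries were used. The authors aligned Iso-seq isoforms to Sscrofa11.1 and added those without a full or incomplete splice match to the Ensembl annotation. They quantified RNA-seq reads on this annotation with Salmon (1.9.0, per the labels), and deposited TPM per transcript, a unit that keeps no read depth. The authors deposited full-length reads as unnormalized counts of 231413 to 458697 per library. The labels name rRNA depletion and the methods poly-T selection, which were not reconciled. The exon counts, reading frames and start offsets of isoforms were deposited as the SQANTI3 output of the authors.

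TPM were summed by gene name. Of 35552 gene identifiers, 15686 were named by the annotation, and 1052 were named here by at least 2 introns shared with RefSeq on the same build. Genes that reached 1 TPM in 3 or more libraries entered a limma fit (3.58.1, in R 4.3.3) on the 10 groups (20 residual degrees of freedom). Each gland was compared with the mean of the other 4, glands in pairs, and DSE with BMI, and p-values were adjusted by Benjamini-Hochberg over all genes. Isoform shares were called from 10 percentage points. The fits were tested on simulated data. Size factors were medians of ratios.

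Named were the 5 members, the list's genes called, 3 like genes per member, and CD46 or CD55 transcripts with at least 5% of the testis reads or a called share. The members and lists were chosen with earlier results of these data known. Alternatives were a pseudocount of 0.1, other filters, size factors, reference transcripts alone, a replicate block, leaving out each library, and for Iso-seq other isoform sets. Python 3.11.15 was used with scipy 1.17.1. The miRNA table was not used here. The sequence in front of the CD59 testis start is not reported here.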

Additional observations from a re-analysis of the deposited data

Results flagged for a closer look

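In 25 groups of 6 libraries, the 5 members in 5 glands, the highest or lowest library was compared with the range of its gland. This comparison, by Dixon's 95% value, was made on TPM without a log scale and with the breeds pooled. For normal values of a single population chance passes it for about 1 in 20 groups, and TPM pooled in this way need not be such values. It was passed by 3. CD46 in DSE_Tes replicate 2 was 170 TPM, where the other testis libraries had 54.5 to 73.5 TPM. C3 in BMI_Epi replicate 1 was 192 TPM, where the other epididymis libraries had 7.51 to 70.0 TPM. C3 in BMI_VG replicate 2 was 86.2 TPM, where the other vesicular gland libraries had 4.79 to 29.2 TPM.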

How the results depend on the processing

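The members had 10 called differences between a gland and the rest (10 to 13 when a library was left out), 18 between pairs of glands (14 to 23) and 0 between the breeds in a gland (0 in each such fit), and the list had 84 gland calls (75 to 94). None of the 28 called member differences changed sign under any alternative, and 13 were called under all. Leaving out a library ended 7 of the 28, all between pairs of glands. CD46 between vesicular and prostate gland was lost without BMI_VG or BMI_PG replicate 1 or 3, DSE_VG replicate 1 or DSE_PG replicate 1, and CFI between epididymis and vesicular gland without BMI_Epi replicate 1, DSE_Epi replicate 2 or 3, or BMI_VG or DSE_VG replicate 1 or 3. C3 between testis and vesicular gland was lost without 15 libraries, 5 of them of testis, 4 of vesicular gland and 6 of other glands. Rescaling by size factors gave 1 breed call (CD59 in testis). For the average over glands, leaving out a library gave 0 to 1 breed calls. The 2 breed calls of the list became 1 with a filter of 6 libraries and 1 with reference transcripts alone, and 1 to 3 without a library. C5 was lost without BMI_PG replicate 1 or 3 or DSE_PG replicate 1 or 3. The 11 called isoform shares became 4 where each gene needed 5 TPM in every library, since C3 and CFI then left the fit, and 10 to 11 without a library, the share of PB.10650.1 being lost without DSE_Tes replicate 1 or 3. The 10 Iso-seq shares and the 5 CD46 isoforms above 5% stayed within their intervals or number under the other isoform sets, and no fusion isoform named a member.

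Replicate numbers did not mark shared animals in the labels. Same-numbered libraries of a breed had a deviation correlation above 0.1 in 21 of 60 gland pairs, against 18 of 120 for differently numbered ones, and those of the breeds in 4 of 15, against 10 of 30. With a replicate block the members had 10 gland calls, 18 calls in pairs and 0 breed calls, the list 84 and 2, and the isoform shares 11; C3 between testis and vesicular gland was lost (adjusted p = 0.0537) and CFI between vesicular and bulbourethral gland was gained (-1.08, adjusted p = 0.0475, against 0.0565).

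TPM carry no depth, and the 1 to 108 testis reads of a member limit the Iso-seq shares.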
